A study of Arabidopsis thaliana with 24 samples.

Results

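Day 2 after activation of the floral regulator AP1 was represented by 4 arrays, one for each of 4 independently collected sets of Arabidopsis thaliana tissue, out of 24 arrays in all. The members were chosen by title alone, as the arrays of the second day, so no measured value entered the choice. On each array decapped mRNA and total mRNA of early flower tissue were hybridised together. The day 2 arrays are set against the 20 arrays of days 0, 1, 3, 4 and 5. The plants of all days were 35S:AP1-GR ap1 cal. They lack working AP1 and CAL and carry AP1 fused to the hormone-binding part of the glucocorticoid receptor, driven by the 35S promoter, which is active in most tissues and so not limited to the cells that normally make AP1. Bolting inflorescences received 1 µM dexamethasone, the steroid that activates the fusion protein, in a solution with ethanol and Silwet L-77. Tissue near the inflorescence surface was pooled from about 25 plants per time point, to enrich meristem. Treatment without dexamethasone was not analysed here. On day 2 the decapped RNA carried the dye Cy3 in sets 1 and 2 and Cy5 in sets 3 and 4.

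The cap at the 5′ end protects an mRNA and recruits the translation machinery. Decapping by the DCP2 complex exposes a transcript to 5′ to 3′ exonucleases, and cleavage guided by microRNAs also leaves a 3′ fragment without a cap. In this system AP1 activation turns a mass of inflorescence-like meristems into flowers that develop in near synchrony, and floral organ identity genes come on in the early primordia.

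Each value below is a log ratio, likely log2 and likely decapped over total, since every sample lists decapped mRNA in channel 1, with either dye. Log base, direction and the authors' centring are not stated, and under the reverse direction each "higher" reads "lower". The medians of the day 2 columns over all probes were -0.02, -0.02, 0.02 and -0.04 in sets 1 to 4. Over the tested genes they were -0.14, -0.25, 0.01 and -0.24. All pairs of the 24 arrays correlated above 0 over the tested genes (lowest r = 0.23). On day 2, 2419 of 26102 probes (9.27%) held one shared set of values of equal size, 0.0352, and were treated as missing. The median of set 4 over all probes equalled this value in size. Those of sets 1 to 3 equalled in size the values of LSM1A, a gene not tested. The medians over all probes therefore need not show how the genes were centred. Of 13745 genes with a probe, 12468 had values on day 2, and 10607 had values on all days and were tested. Smaller groups of probes that shared their values were kept, and 10120 tested genes still had values on all days once these were also removed. The 95% interval of a day 2 mean had a median half-width of 0.72. A ratio gives no level, so the tissue label could not be checked by its markers. Of 14 markers of pollen, vascular and stomatal cells 0 were tested, and the 3 measured on day 2, VGD1 at 0.37, AMS at -0.07 (the same 4 values as PUB15) and FAMA at -0.90, did not pass. A change in the mix of cells cannot be told apart from a change within cells.

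The set 1 array of day 2 stood apart from the other 3. Across genes it correlated with sets 2, 3 and 4 at r = 0.26, 0.23 and 0.36, whereas sets 2, 3 and 4 correlated with each other at 0.66 to 0.81. With the mean of the 20 arrays of other days, r was 0.48 for set 1 and 0.86, 0.86 and 0.77 for sets 2, 3 and 4. Set 1 lay alone on its side of 0 in 2299 genes (21.7%), against 761 (7.17%), 886 (8.35%) and 363 (3.42%) for sets 2, 3 and 4. It correlated with the set 1 arrays of days 0, 1, 3, 4 and 5 at 0.31, 0.67, 0.61, 0.61 and 0.45, and with the arrays of other sets on those days at 0.25 to 0.47. The set 1 arrays of days 1 and 3 also stood apart. Sets 2 to 4 of day 2 correlated with them at 0.30 to 0.46, and with sets 2 to 4 of those days at 0.56 to 0.84. With the set 1 arrays of days 0, 4 and 5 the range was 0.56 to 0.70. For the genes described below, calls that turn on the set 1 array of day 2 are given with and without it. So are the described counts that it moves by over 1.5 times.

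**Figure D1:**
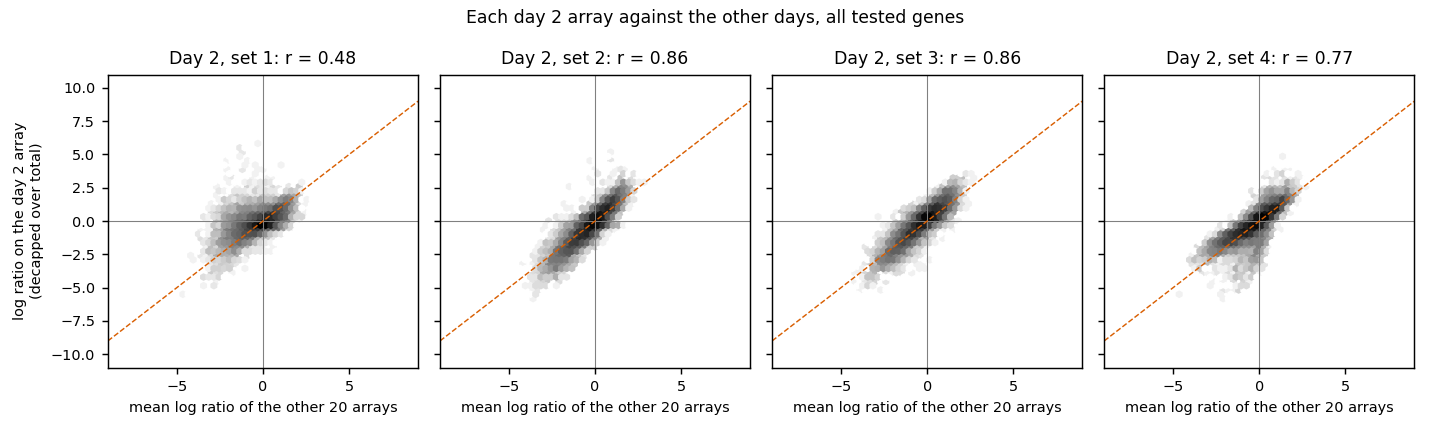
Each panel plots the log ratio on 1 day 2 array (vertical axis) against the mean log ratio of the 20 arrays of other days (horizontal axis) over 10607 genes, with darker cells holding more genes on a log scale and a dashed line at equality. Sets 2, 3 and 4 follow the line with r of 0.86, 0.86 and 0.77, while set 1 scatters more widely with r of 0.48.

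Day 2 ratios were first set against 0 on the deposited scale, which need not mark equal shares of both pools, since the authors' centring is not stated. Among genes with a symbol that passed with all 4 arrays on one side of 0, BZIP53 had the highest mean and EX1 the lowest. BZIP53 is a bZIP transcription factor of seed maturation and low-energy responses, and EX1 a chloroplast protein of singlet oxygen signalling. In all, 1486 genes (14.0%) were higher than 0 and 2090 (19.7%) lower by limma at an adjusted p under 0.05. Without the set 1 array 1696 (16.0%) were higher and 2496 (23.5%) lower, and 1338 higher and 1851 lower genes were called both ways. Called genes at least 2 below 0 numbered 548, and those at least 2 above 0 numbered 98. The median of all genes was -0.17 on day 2 and -0.16 on the other days. Higher genes made up 41.6% of the called genes, 50.8% once each array was centred on its median, which moved day 2 means by a median of 0.16, and 51.8% once arrays were also scaled. All 4 arrays lay above 0 in 2010 genes (18.9%) and below 0 in 2814 (26.5%).

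The 12 highest genes with a symbol had means of 2.01 to 4.07, with limma adjusted p-values of 3.76e-06 to 0.0281. BZIP53 had 4.20, 2.85, 3.24 and 5.98 in sets 1 to 4, a mean of 4.07 ± 1.39 (SD, n = 4; limma adjusted p = 9.2e-05). All 4 day 2 values were above its mean on the other days, 2.84 ± 1.37 (SD, n = 20), but the difference of 1.23 ± 0.70 (SE) did not pass (limma unadjusted p = 0.0912). CSLC6, a cellulose synthase-like gene of xyloglucan synthesis, had 2.03, 1.79, 1.94 and 2.40 (SD 0.26), the smallest spread of the 12. UBP21, a ubiquitin-specific protease gene, had 2.33, 1.75, 2.02 and 3.09. POL, a protein phosphatase gene of stem cell control, had 1.90, 2.25, 1.61 and 2.94. In CSLC6, UBP21 and POL, set 1 lay within the range of the other sets.

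In other members set 1 was the lowest array. PSY1R, a receptor kinase gene for a sulfated peptide, had 0.59, 3.64, 3.19 and 1.89, and CTF2A had 0.57, 3.72, 3.26 and 1.87. RR19, a response regulator gene, had 1.10, 2.86, 2.65 and 2.59, and CFM3B, a gene of chloroplast RNA splicing, had 0.65, 2.86, 3.11 and 1.41. The subtilisin-like protease gene SBTI1.1 had 1.00, 2.90, 2.24 and 2.25. Its relative SBT1.3 went the other way, with 3.01, 1.66, 1.14 and 3.57, sets 1 and 4 being the highest. TRM19, whose protein has a TON1-recruiting motif, had 2.49, 2.39, 1.34 and 3.04, and GAPC2, a gene of cytosolic glycolysis, had 1.82, 1.06, 1.61 and 3.90, with set 4 far above the rest. All 12 were called without set 1. RR19 did not pass without set 2, 3 or 4 (adjusted p = 0.0817, 0.0696 and 0.0617), nor SBTI1.1 without set 2, 3 or 4 (adjusted p = 0.135, 0.0932 and 0.0887), nor CFM3B without set 3 (adjusted p = 0.0583).

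The 12 lowest genes with a symbol had means of -4.06 to -3.00, with limma adjusted p-values of 3.17e-06 to 0.0179. EX1 had -0.76, -5.76, -6.72 and -3.00 in sets 1 to 4, a mean of -4.06 ± 2.71 (SD, n = 4; limma adjusted p = 0.0179), the widest spread of the 12. MOB1-like, a gene for a kinase adaptor, had -2.91, -5.00, -5.31 and -2.60, and SNF7.1, a gene of the ESCRT-III membrane-sorting complex, had -1.87, -4.96, -4.18 and -2.72. In these 3 genes sets 2 and 3 were the lowest. EX1 did not pass without set 2 or 3 (adjusted p = 0.09 and 0.15).

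NRPB6A, an RNA polymerase subunit gene, had -2.36, -3.38, -3.75 and -2.77, and CML43, a calmodulin-like gene, had -2.16, -3.39, -3.89 and -2.80. ILR3, a gene of a basic helix-loop-helix transcription factor, had -2.38, -4.41, -3.21 and -2.70, and BOB1, a chaperone gene, had -1.63, -3.77, -4.01 and -2.64. Set 1 was the nearest to 0 in these 4 genes. DECOY had -1.78, -3.65, -4.49 and -2.07 and CDI had -0.63, -5.63, -3.33 and -2.88, and in both sets 2 and 3 were the lowest.

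Set 4 was the lowest in the remaining 3 genes. NdhN, a chloroplast NAD(P)H dehydrogenase subunit gene, had -1.45, -4.46, -1.78 and -7.18, MENG, a gene of phylloquinone synthesis, had -3.18, -3.29, -1.70 and -5.68, and FMO, a flavin monooxygenase gene, had -1.54, -3.20, -2.70 and -6.49. All 12 were called without set 1. FMO did not pass without set 4 (adjusted p = 0.124), nor CDI without set 2 (adjusted p = 0.051).

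**Figure D2:**
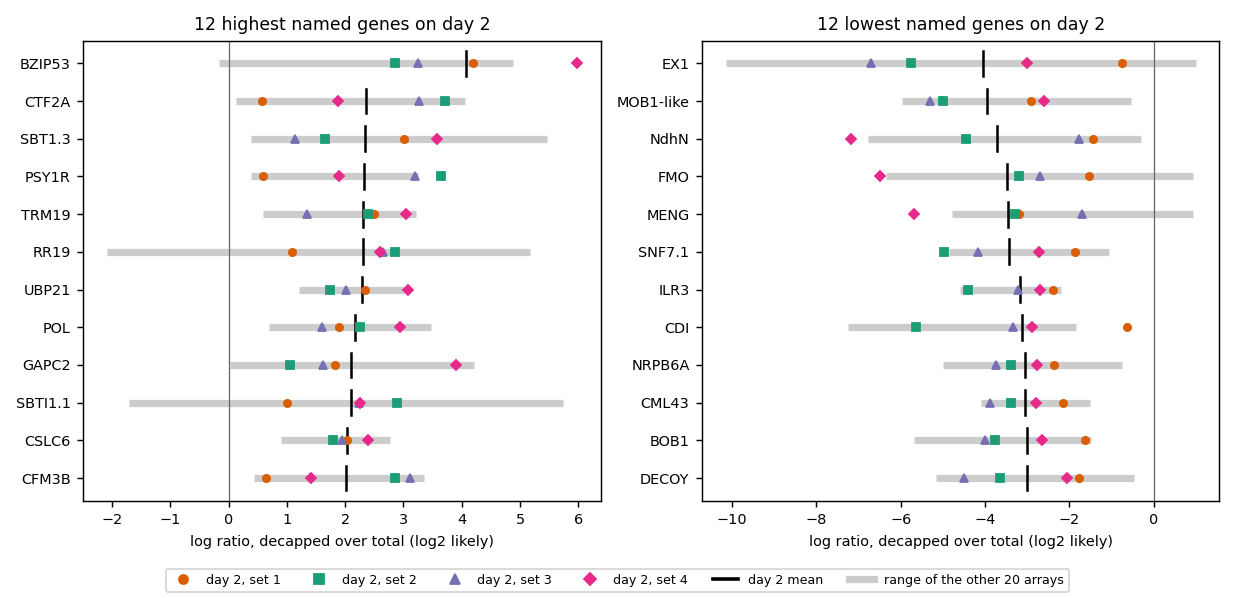
The log ratios (horizontal axis) of the 12 highest and 12 lowest genes with a symbol are drawn with 1 marker for each day 2 set, a black bar for the day 2 mean and a grey band for the range of the 20 arrays of other days. BZIP53 reaches 5.98 in set 4, and EX1 spreads from -6.72 in set 3 to -0.76 in set 1.

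AT2G01020, which RefSeq annotates as an rRNA gene, had 3.63, 3.26, 7.02 and 9.56 in sets 1 to 4, a mean of 5.87 ± 2.99 (SD, n = 4). Ribosomal RNA carries no cap. This was the highest mean of all tested genes, with 5.48 on the other days, and both Cy5 arrays were above both Cy3 arrays on day 2.

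Genes of flower formation were then set against 0. Of 41 listed regulators of floral organs and floral meristems 14 were tested, of which 4 were higher, 1 was lower and 9 did not pass. Their median was 0.11, beside -0.17 over all genes, of which 14.0% were higher and 19.7% lower. TSO1, a regulator of floral cell division, had 1.45, 1.57, 0.70 and 1.47 (mean 1.30 ± 0.40, SD, n = 4; limma adjusted p = 0.000288). SPT, a carpel regulator, had 1.45, 0.89, 1.16 and 1.58 (mean 1.27; limma adjusted p = 0.000926). UFO, an F-box cofactor of LFY in petal and stamen identity, had 0.84, 1.18, 0.92 and 1.05 (mean 1.00 ± 0.15; limma adjusted p = 0.000744). All 4 arrays of each lay above 0, and the 3 calls held with each array left out in turn.

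Of the NGATHA genes, which shape the style and stigma, NGA1 was higher, with 0.66, 0.46, 0.97 and 0.93 (mean 0.75; limma adjusted p = 0.00633). NGA2 had 1.04, 0.56, 0.71 and 0.72, also above 0 on all 4 arrays, but did not pass (mean 0.76; limma adjusted p = 0.0839). With each array centred NGA2 passed at 0.92 (limma adjusted p = 0.0242). NGA3 averaged -1.21, with -3.78 in set 4 apart from the rest, and NGA4 averaged -0.58, and neither passed, but NGA3 was lower with the set number as a block (limma adjusted p = 0.0179).

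ULT1, which helps to end floral stem cell activity, was the lower gene of this list, with -0.56, -2.43, -1.43 and -1.49 (mean -1.48; limma adjusted p = 0.0342). It did not pass without set 2, 3 or 4 (adjusted p = 0.185, 0.101 and 0.102). RBE, a petal regulator, had -0.02, -1.23, -0.51 and -0.53 and did not pass (limma adjusted p = 0.0577), while without set 1 it was lower at a fitted mean of -0.80, adjusted for dye (limma adjusted p = 0.0166), as it was with the block (limma adjusted p = 0.0214). The list thus had 2 lower genes without set 1 and 3 with the block. JAG, which promotes organ growth, had -0.85, -0.32, 0.99 and 0.87, below 0 in the Cy3 sets and above 0 in the Cy5 sets. SEU, a corepressor of AG, had 1.66, -0.34, -1.09 and -0.10, with set 1 apart, and averaged 0.03 with set 1 and -0.51 without it. PTL, a perianth regulator, at 0.17, KNU, a repressor of the stem cell gene WUS, at 0.05, and SPL, needed for sporocytes, at -0.29 did not pass.

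Among flowering-time and inflorescence regulators 9 of 27 listed genes were tested, of which 1 (11.1%) was higher and 3 (33.3%) lower, around a median of -0.11. Of all genes 14.0% were higher and 19.7% lower. The MADS-box gene AGL72 had -0.92, -2.23, -2.37 and -1.38 (mean -1.73 ± 0.69, SD, n = 4; limma adjusted p = 0.00383). Its relative AGL71 had -0.90, -0.71, -0.72 and -0.47 (limma adjusted p = 0.0175), and AGL24, a promoter of flowering that AP1 represses, had -0.53, -0.72, -0.98 and -0.51 (limma adjusted p = 0.0431). All 3 lay below 0 on the 4 arrays. AGL71 did not pass without set 1, 2 or 3 (adjusted p = 0.0507, 0.0597 and 0.0719), nor AGL24 without set 1, 2, 3 or 4 (adjusted p = 0.0522, 0.119, 0.183 and 0.0881). With each array centred 1 gene was higher and 1 lower, and the median turned to 0.05. Without set 1 it was also 1 higher and 1 lower, with a median of 0.16.

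GI, a clock-linked promoter of flowering, was the higher gene, with 0.16, 1.06, 1.93 and 0.77 (mean 0.98; limma adjusted p = 0.0309). It did not pass without set 2, 3 or 4 (adjusted p = 0.0936, 0.243 and 0.0743). The floral repressors SMZ, SNZ and AGL18 averaged 0.60, -0.12 and -0.11, the MADS-box gene AGL42 0.24, and FD, the partner of florigen, 0.27, none of which passed.

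Of 26 meristem and boundary genes 4 were tested. POL, given above, was higher. LOB, a boundary gene, was lower, with -0.92, -1.82, -1.11 and -0.45 (mean -1.08; limma adjusted p = 0.0229), but did not pass without set 2 or 3 (adjusted p = 0.158 and 0.0805). LAS, which acts where side shoots form, had 2.92, -2.07, -0.69 and -1.27, set 1 lying far above the rest. Its mean of -0.28 did not pass, while without set 1 its fitted mean was lower at -1.45 (limma adjusted p = 0.0481). CLV3, the stem cell peptide gene, had -0.94, -0.67, 0.67 and 0.27, below 0 in the Cy3 sets and above 0 in the Cy5 sets. CLV3 did not pass. Of 15 organ polarity genes 2 were tested. PHV, an adaxial regulator targeted by microRNAs, had 1.84, -0.08, 1.30 and 0.88 and did not pass (limma adjusted p = 0.0908), but passed with centring at 1.14 (limma adjusted p = 0.0317). YAB3, an abaxial regulator, averaged -0.43 and did not pass.

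**Figure D3:**
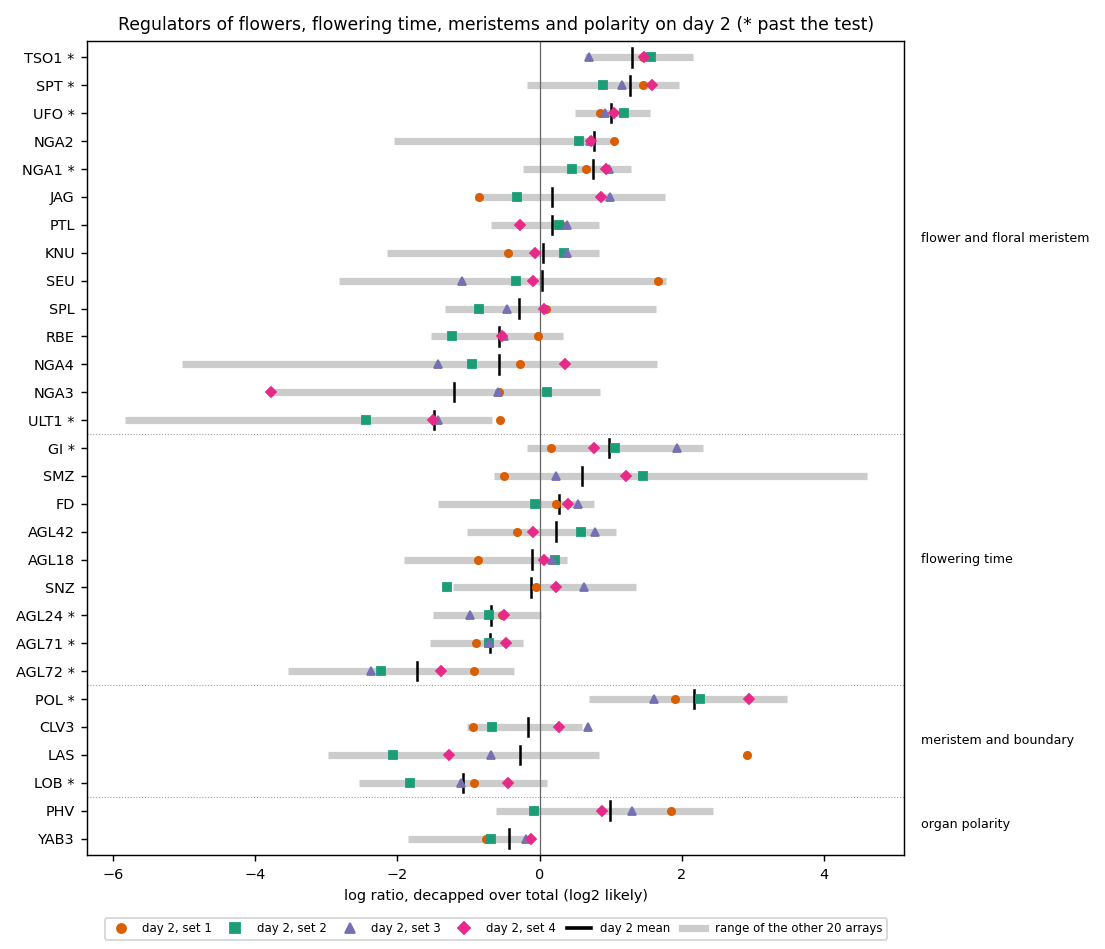
Log ratios (horizontal axis) of regulators are grouped by list from top to bottom, with 1 marker per day 2 set, a black bar for the day 2 mean, a grey band for the range of the 20 arrays of other days and an asterisk on genes past the test. UFO, SPT and TSO1 have all 4 markers above 0, AGL71 and AGL72 all 4 below 0, and LAS has set 1 at 2.92, apart from the other sets.

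Slicing of microRNA targets leaves uncapped fragments. Of 61 listed targets 6 were tested, of which 1 (16.7%) was higher and 0 lower, with a median of 0.25. Of all genes 14.0% were higher and 19.7% lower. APS3, an ATP sulfurylase gene of a family that a microRNA targets, had 1.33, 2.32, 2.20 and 1.92 (mean 1.94 ± 0.44, SD, n = 4; limma adjusted p = 1.71e-05). Its paralogue APS4 had 1.59, -2.21, -2.10 and -0.99 and did not pass (limma adjusted p = 0.209), while without set 1 its fitted mean was lower at -1.90 (limma adjusted p = 0.00771). In sets 2 to 4 the pair lay on opposite sides of 0. PHV, SMZ and SNZ, given above, and AGL16 at -0.10 were the other tested targets. With centring 2 of the 6 were higher.

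Of 33 listed genes of mRNA decay 9 were tested, of which 4 (44.4%) were higher and 1 (11.1%) lower, beside 14.0% and 19.7% of all genes. Their median was 0.89. RH6 and RH12, relatives of the decapping activator DHH1 of yeast, were both higher. RH6 had 1.94, 1.36, 1.01 and 1.67, and RH12 had 1.81, 1.12, 0.72 and 2.06. SKI2, the helicase that feeds the cytoplasmic exosome, had 1.05, 2.68, 1.63 and 1.50, and UPF2, of nonsense-mediated decay, had 1.39, 1.21, 0.56 and 0.40. All 4 arrays of these genes lay above 0. RRP41, a core exosome subunit, was lower, with -1.95, -2.02, -2.96 and -1.42 (mean -2.09 ± 0.64, SD, n = 4; limma adjusted p = 0.000857). The calls of RH6, RH12 and RRP41 held with each array left out in turn. UPF2 did not pass without set 1, 2 or 3 (adjusted p = 0.101, 0.122 and 0.0626), nor SKI2 without set 2, 3 or 4 (adjusted p = 0.093, 0.0734 and 0.061).

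NOT1, the scaffold of the deadenylase complex, had nearly equal values of 1.32, 1.33, 1.29 and 1.11 on day 2, against an SD of 1.07 over the 20 arrays of other days, which enter the shared error, and did not pass (limma adjusted p = 0.0541). With centring it passed at 1.42 (limma adjusted p = 0.0216). The decapping scaffold gene VCS had 0.10, 0.12, 1.18 and 0.24, with set 3 above the rest. The decapping activator genes PAT1 and LSM1B averaged 0.61 and 0.37, and none of these 3 passed. Gene span ran from 3499 to 7889 bp in the 4 higher genes and was 2890 bp in RRP41, and span moved with the ratio over all genes, as given further on. Its part in this list's count was not tested.

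Of 46 listed nuclear genes of the photosystems, their antennae and Rubisco, 8 were tested, of which 6 (75.0%) were lower and 0 higher. Of all genes 19.7% were lower and 14.0% higher. Their median was -1.83, and -1.67 with each array centred. LHCB4.2, an antenna gene of photosystem II, had -2.52, -3.07, -2.68 and -2.24 (mean -2.63 ± 0.35, SD, n = 4; limma adjusted p = 2.4e-06). LHCB4.3 had -0.96, -2.41, -2.57 and -1.37, and LHCB4.1 had -1.99, -1.29, -1.12 and -1.40 as the average of 2 probes, whose means were -0.40 and -2.50. PSAN, a photosystem I subunit gene, had -2.60, -1.12, -1.89 and -1.98. These 4 genes lay below 0 on all arrays, and their calls held with each array left out in turn.

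Of the photosystem II subunit genes, PSBY had -3.11, -1.82, -1.80 and -2.25, and PSBW had -3.66, -0.85, -0.85 and -1.95, with set 1 the lowest in both. PSBY did not pass without set 4 (adjusted p = 0.0524), nor PSBW without set 1 or 4 (adjusted p = 0.0802 and 0.0534). The antenna gene LHB1B2 at 0.62 and PSAE-1, of photosystem I, at -0.13 did not pass.

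Of 37 auxin genes 8 were tested and 1 (12.5%) was higher, beside 14.0% of all genes, with a median of 0.11. IAA29, of the Aux/IAA repressors of auxin response, had -0.24, 1.59, 2.17 and 1.25 (limma adjusted p = 0.0393) and did not pass without set 2, 3 or 4 (adjusted p = 0.142, 0.244 and 0.124). IAA34 had 4.82, -0.67, -0.45 and 5.15, high in sets 1 and 4 and below 0 in sets 2 and 3, and did not pass. Of 13 stress and touch genes 2 were tested. STZ, a zinc finger gene of stress responses, was higher, with 1.79, 3.55, 0.26 and 2.16 (limma adjusted p = 0.0255), but did not pass without set 2 or 4 (adjusted p = 0.141 and 0.13). CML37, a calmodulin-like gene, averaged -2.10 and did not pass, but was lower with the block (limma adjusted p = 0.0381). Of 25 cell division genes 1 was tested, PRL, of the MCM helicase, which averaged -0.17 and did not pass. Over all lists 15 of 85 tested genes (17.6%) were higher and 17 (20.0%) lower, beside 14.0% and 19.7% of all genes, and 14 and 14 without set 1. Of these 32 calls 16 held with each array left out in turn.

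Histone genes package newly made DNA in dividing tissue, and 25 of 42 listed were tested, of which 2 (8.0%) were higher and 5 (20.0%) lower, beside 14.0% and 19.7% of all genes. Their median was -0.29. HTB1, an H2B gene, had -3.47, -2.72, -2.48 and -2.39 (mean -2.77 ± 0.49, SD, n = 4; limma adjusted p = 2.26e-06). The other lower genes were HTB3, also of H2B, with -0.75, -1.85, -2.97 and -0.50, HIS4, of H4, with -2.79, -0.42, -0.46 and -2.15, HTR9, of H3.1, with -1.57, -1.51, -1.74 and -0.65, and HTR5, of H3.3, with -5.75, -1.60, -0.56 and -2.76. All lay below 0 on the 4 arrays, with set 1 the lowest in HTB1, HIS4 and HTR5. The H4 gene AT5G59690 was higher, with 0.49, 1.20, 0.96 and 1.41, as was HTR3, of H3.1, with -0.16, 0.76, 1.04 and 1.38. Histone genes of one class are near-identical in coding sequence, so a value may hold signal of other copies.

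HTB3 did not pass without set 2 or 3 (adjusted p = 0.0744 and 0.131), HIS4 without set 1 or 4 (adjusted p = 0.19 and 0.187), or HTR5 without set 1 (adjusted p = 0.0588). HTR9 did not pass without set 1, 2, 3 or 4 (adjusted p = 0.0916, 0.131, 0.149 and 0.055), nor HTR3 without set 2, 3 or 4 (adjusted p = 0.183, 0.0843 and 0.136). Without set 1 the list had 2 higher and 2 lower genes, and with centring 2 higher and 3 lower. With the block 2 were higher and 7 lower, H1.2 and HTR1 being the added lower genes (limma adjusted p = 0.0153 and 0.0152).

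In 8 of the 25 histone genes (32.0%) both arrays with decapped RNA in Cy3 lay below 0 and both with decapped RNA in Cy5 above 0, a pattern shown by 533 of all 10607 genes (5.02%). The reverse was shown by 0 of the 25 and by 86 of all genes (0.811%). HTR4, of H3.3, had -1.32, -1.61, 2.11 and 2.40 in sets 1 to 4, HTB4, of H2B, had -0.65, -0.88, 1.35 and 2.17, and HTR2, of H3.1, had -1.71, -2.58, 1.27 and 1.19. In each of these genes the dyes were further apart than the arrays of one dye.

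HTR8, HTR13, HTB5 and the H4 genes AT1G07820 and AT3G46320 had the same pattern. On the other days HTR4 averaged -0.90 over the Cy3 arrays and 1.09 over the Cy5 arrays, HTB4 -1.06 and 1.28, and HTR2 -1.95 and 0.29. The day 2 means of the 8 genes, from -0.52 to 0.50, average arrays of opposite sign, and none passed. HTR12, the centromeric H3 gene, had -0.52, -0.29, -0.37 and 0.04 and did not split in this way. The part of the dye in the values of these genes was not tested beyond the dye term of the fit.

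**Figure D4:**
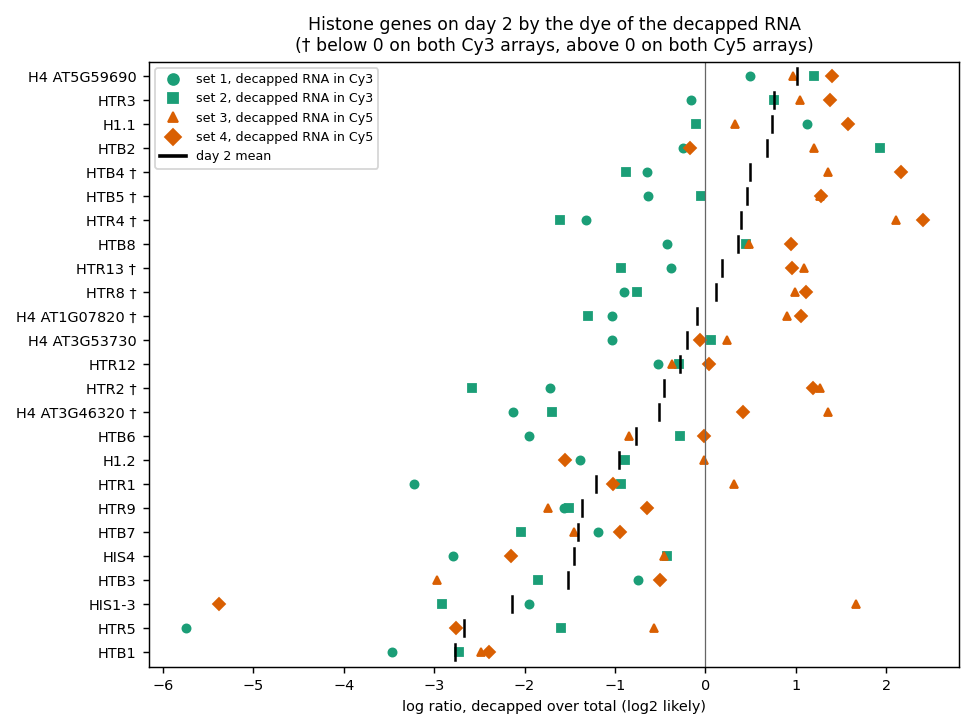
Log ratios (horizontal axis) of the 25 tested histone genes on day 2 are coloured by the dye of the decapped RNA, with 1 marker per set and a black bar for the mean. In 8 genes both Cy3 markers lie below 0 and both Cy5 markers above 0, whereas HTB1 lies below -2 on all 4 arrays.

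Gene families were counted where at least 6 tested members shared the letters of their symbol, and the 28 families reported here hold 292 genes. Of their 87 called members 37 kept the call with each array left out in turn. Members other than the highest and the lowest of a family were named after their values were seen. The counts below stand beside 14.0% higher and 19.7% lower of all genes. Among 12 ubiquitin-specific protease genes (UBP), which remove ubiquitin, 6 were higher and 0 lower, the median being 0.77. Beside UBP21, UBP16 had 0.91, 2.40, 1.78 and 1.47 and UBP19 had 0.59, 2.32, 1.48 and 1.13, with all arrays above 0 and set 1 the lowest. The lowest member, UBP20, averaged 0.06 and did not pass. The count of higher genes was 7 without set 1, 8 with centring and 9 with scaling as well.

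Genes with TRM symbols numbered 13, of which 7 were higher and 1 lower, the median being 0.97. The highest was TRM19, and TRM20 had 1.17, 2.21, 1.45 and 1.34. TRM21 had nearly equal values of 1.08, 0.97, 0.88 and 0.94 but did not pass without set 2, 3 or 4 (adjusted p = 0.0607, 0.0533 and 0.053). The lower gene was TRM82, which belongs to tRNA modification and not to the TON1-recruiting proteins, with -0.47, -2.84, -2.16 and -1.92. It did not pass without set 2 or 3 (adjusted p = 0.075 and 0.0543). The counts with centring were again 7 and 1.

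Glutamate receptor-like channel genes (GLR) had 4 higher and 0 lower of 7, with a median of 0.87, and the counts were the same without set 1 and with centring. GLR1.4, the highest, had 0.23, 2.36, 2.35 and 1.59, and GLR3.3 had 0.48, 1.00, 1.10 and 0.91. GLR1.4 did not pass without set 2 or 3 (adjusted p = 0.0599 and 0.0591). GLR2.2, the lowest, averaged 0.07 and did not pass. Of 12 IQD genes, whose proteins bind calmodulin, 3 were higher and 2 lower, or 6 and 3 without set 1, and 5 and 2 with the block. IQD18, the highest, had 1.48, 2.14, 1.99 and 2.11, and IQD25, the lowest, had -0.24, -2.00, -2.35 and -1.40, set 1 being the nearest to 0 in both.

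Of 6 Mediator genes (MED), which link regulators to RNA polymerase II, 4 were lower and 0 higher, around a median of -1.36, and the counts were the same without set 1 and with centring. MED6, the lowest, had -1.19, -3.11, -2.08 and -1.13, and MED19A had -0.12, -2.20, -2.94 and -1.05. MED6 did not pass without set 2 (adjusted p = 0.101), nor MED19A without set 2 or 3 (adjusted p = 0.0548 and 0.0894). MED10A, the highest, averaged 0.25 and did not pass. Of 6 RNA polymerase subunit genes (NRPB) 4 were lower and 0 higher, around a median of -1.31, while 2 were lower with scaling and 3 without set 1. Beside NRPB6A, NRPB3 had -0.69, -2.42, -2.45 and -1.80 and NRPB8B had -1.28, -0.77, -0.65 and -1.01, below 0 on all arrays. NRPB12, the highest, averaged -0.30 and did not pass.

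Calmodulin-like genes (CML), of calcium sensors, had 3 of 7 lower and 0 higher, and their median of -1.96 was the lowest of the 28 families. Beside CML43, CML38 had -1.33, -3.45, -3.89 and -1.28 and CML23 had -2.13, -1.96, -2.18 and -1.58, below -1 on all arrays. CML42, the highest, averaged 0.01 and did not pass.

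Of 14 PRA genes 5 were lower and 0 higher, around a median of -0.62, and 3 were lower without set 1. PRA7 had -1.26, -2.06, -1.52 and -1.03 and PRA8 had -1.57, -1.98, -1.02 and -1.03, below -1 on all arrays. PRA1.F4, the lowest, averaged -1.85 but did not pass without set 1, 2, 3 or 4 (adjusted p = 0.112, 0.119, 0.0535 and 0.0776). Of 9 alpha-expansin genes (EXPA), which loosen cell walls, 3 were lower and 0 higher, but 1 was lower with centring and 5 with the block. The lowest, EXPA4, averaged -2.66 and did not pass (limma adjusted p = 0.0579), but did with the block (limma adjusted p = 0.0474). PDF symbols mix plant defensin genes with peptide deformylase genes, and 4 of 6 were lower and 0 higher. The defensin gene PDF1.2 had -0.96, -1.19, -1.54 and -0.39, and the deformylase gene PDF1A, the lowest, had -0.88, -3.24, -2.78 and -1.18. PDF1A did not pass without set 3 (adjusted p = 0.0586).

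Of 7 autophagy genes (ATG) 3 were lower and 1 higher, or 3 and 2 without set 1. Among ATG8 genes, whose proteins coat autophagosome membranes, ATG8B had -1.83, -1.54, -1.61 and -0.96, while ATG8H, the highest, had 0.35, 1.33, 1.25 and 1.76. ATG8H did not pass without set 2, 3 or 4 (adjusted p = 0.0533, 0.0542 and 0.0862). ATG3, the lowest, whose enzyme attaches ATG8 to lipid, had -0.31, -3.64, -3.17 and -1.58 and did not pass without set 2, 3 or 4 (adjusted p = 0.167, 0.147 and 0.0594). Among 8 VPS genes, of vacuolar sorting, 2 were lower, and VPS24.1, the lowest, had -2.07, -3.51, -4.03 and -1.75. Among 10 SWEET sugar transporter genes 2 were lower, with SWEET10 at -1.01, -2.38, -1.29 and -1.63.

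Of 7 BZIP genes 1 was higher and 1 lower, or 1 and 2 either without set 1 or with the block. BZIP61, at the other end from BZIP53, had -0.20, -2.97, -2.99 and -4.79 (limma adjusted p = 0.00383) and did not pass without set 4 (adjusted p = 0.0532).

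Of 33 UGT glycosyltransferase genes 1 was higher and 4 lower, between UGT84A4 at 1.46 and UGT73B1 at -2.36, but 2 and 7 without set 1, and 2 and 5 with the block. Of 15 TBL genes 2 were higher and 3 lower, between TBL35 at 1.33 and TBL37 at -2.22, and of 13 scpl genes 1 and 3, or 2 and 2 with the block, with scpl20 the lowest at -2.73. Of 17 CYP genes 2 were higher and 1 lower, or 2 and 4 either without set 1 or with the block, CYP71B22 being the highest at 1.74. Of 10 SEC genes, of secretion, 0 were higher and 0 lower by limma, with SEC5A at 0.63 the highest and SEC10 at -0.62 the lowest, and with centring 1 was higher. TET, BGLU, PUB, ALDH, GSTU, NET and OTP, with 12, 11, 11, 8, 8, 8 and 8 tested members, were only counted. They had 1, 2, 0, 0, 0, 1 and 1 higher genes and 2, 0, 1, 1, 2, 1 and 0 lower ones. Without set 1 it was 2, 3, 0, 1, 0, 1 and 1 higher and 2, 2, 2, 2, 1, 1 and 1 lower. With the block it was 2, 2, 0, 1, 0, 2 and 1 higher and 2, 2, 2, 1, 2, 2 and 0 lower.

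**Figure D5:**
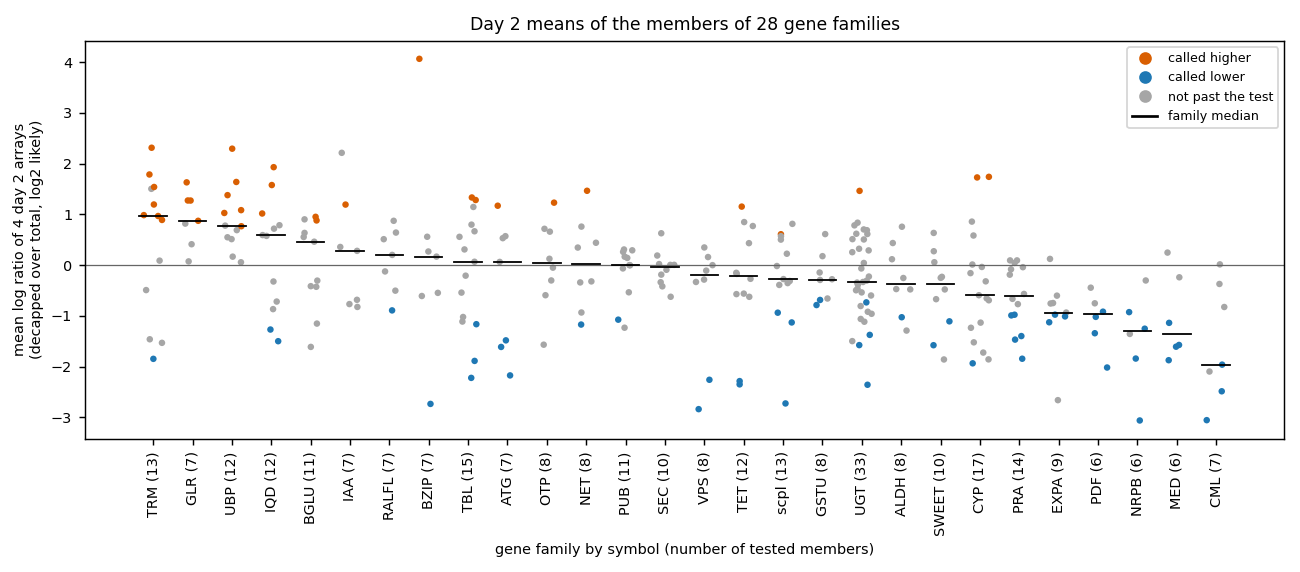
Each point is the day 2 mean log ratio (vertical axis, n = 4 arrays) of 1 member of the 28 families (horizontal axis, with the number of tested members), coloured by its call, with a black bar at the family median. TRM, GLR and UBP have medians of 0.97, 0.87 and 0.77, and NRPB, MED and CML medians of -1.31, -1.36 and -1.96.

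Gene span moved with the day 2 ratio. The 5 classes had median spans of 1011, 1668, 2180, 2854 and 4190 bp. Their median ratios, from short to long, were -0.23, -0.37, -0.32, -0.11 and 0.16. Higher genes made up 5.36%, 8.46%, 12.3%, 19.8% and 24.1% of the classes, and lower genes 19.7%, 27.1%, 25.9%, 18.3% and 7.42%. The share of higher genes thus grew with span, while the lowest median lay in the second class. The median of the longest class was 0.37, 0.05, 0.25 and 0.05 in sets 1 to 4, and that of the shortest -0.39, -0.26, 0.04 and -0.22. The longest class was above the shortest on all 4 arrays, by 0.39 ± 0.25 (SD over 4 arrays). Among the families above, members of UBP spanned 2835 to 6823 bp and of GLR 3401 to 4702 bp, while members of NRPB spanned 1397 to 2286 bp and of CML 647 to 1389 bp. Not all families lay in this order. Members of SEC spanned 2348 to 8209 bp, with 0 higher and a median of -0.04. Members of RALFL spanned 459 to 1358 bp, with a median of 0.20. The part of span in the counts of these families was not tested. On the other days the class medians were -0.21, -0.37, -0.34, -0.10 and 0.18. Of 124 pseudogenes 6 were higher (4.84%) and 4 lower (3.23%). Their median was -0.04 on day 2 and 0.18 on the other days.

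The second comparison asked whether day 2 differed from the other days. By limma 0 genes were higher and 0 lower at an adjusted p under 0.05 (0.0% of 10607; lowest adjusted p = 1.00), and 107 (1.01%) had an unadjusted p under 0.05. Evenly spread p-values would put a larger share of genes, 0.05, under that threshold. The error of this fit held no set term, and why so few genes fell under the threshold was not tested. With the set number as a block the adjusted counts were again 0 higher and 0 lower. These counts do not measure how alike the days were. In 0 genes did all 4 day 2 arrays lie above all 20 others, and in 0 below. The 95% interval of a difference had a median half-width of 0.79. In simulated data a shift of 1 between day 2 and the other days was found in 12% of 200 changed genes and a shift of 2 in 77%. The simulated arrays were drawn independently, with no pairing by set and no array that stood apart. These shares therefore need not hold for the real arrays.

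The 6 genes with the smallest unadjusted p were named after their values were seen, and 4 of them were below the other days. AT3G56780 had -0.79, 0.30, -3.08 and -2.58 on day 2, against 0.12 ± 0.48 (SD, n = 20) on the other days, a difference of -1.66 ± 0.38 (SE; limma unadjusted p = 0.00029). AT1G69630 had -0.53, 0.08, -1.64 and -2.07, against 0.18 ± 0.56, and in both genes the Cy5 sets 3 and 4 held the low values. AT5G47000 had -0.24, -2.05, -1.94 and -2.04, against -0.02 ± 0.71, with set 1 near the other days, and AT5G35810 had -0.49, -2.04, -1.52 and -0.02, against 0.03 ± 0.46. Above the other days were AT4G13860, with 3.48, 0.37, 1.12 and 2.34, against 0.34 ± 0.66, and AT5G02720, with 2.58, 0.43, 0.31 and 3.15, against 0.36 ± 0.44. Sets 1 and 4 held the high values in these.

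BZIP61 averaged -2.74 on day 2, against -0.64 ± 1.21 (SD, n = 20) on the other days, a difference of -2.10 ± 0.73 (SE; limma unadjusted p = 0.00872). Among the 85 listed genes 66 (77.6%) were above the other days, beside 61.7% of all genes, and 0 had an unadjusted p under 0.05. Differences ran from -1.15 for IAA34 to 0.93 for STZ. The smallest p was that of NGA2, with 0.76 on day 2 and 0.09 ± 0.65 (SD, n = 20) on the other days, a difference of 0.67 ± 0.37 (SE; limma unadjusted p = 0.0812). UFO differed by -0.01 ± 0.21, SPT by 0.19 ± 0.28 and TSO1 by -0.08 ± 0.25 (SE), which does not show that these ratios were alike.

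Across the 10607 genes, which share arrays and are not independent, the day 2 mean followed the mean of the other 20 arrays with Pearson's r = 0.95 and Spearman's rho = 0.94. For days 0, 1, 3, 4 and 5, each against the rest, rho was 0.93, 0.95, 0.91, 0.95 and 0.95. The median gene stood 4.02 percentile points from its place on the other days. On day 2, 384 genes moved by 25 points or more, against 465, 245, 635, 264 and 220 on days 0, 1, 3, 4 and 5. Of the 1061 genes ranked highest on day 2, 886 (83.5%) were also among the 1061 highest on the other days, and of the 1060 ranked lowest, 870 (82.1%) were among the lowest.

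The largest moves of rank were also named after their values were seen. UGT78D2, a flavonoid glucosyltransferase gene, stood at percentile 82.7 on day 2, against 8.68 on the other days, with 3.59, 1.42, -1.59 and -0.60 in sets 1 to 4. AT4G36080 stood at 81.3, against 27.8, with 5.90, -0.62, -2.32 and -0.34, and AT5G66500 at 77.5, against 27.4, with 2.54, 1.63, -1.20 and -0.89. In all 3 set 1 was the highest array and sets 3 and 4 were below 0. UGT78D2 and AT5G66500 lay above 0 on both Cy3 arrays and below 0 on both Cy5 arrays. Of all genes 86 (0.811%) did so. Without set 1 the plain day 2 means of UGT78D2, AT4G36080 and AT5G66500 were -0.26, -1.09 and -0.16, against 0.70, 0.66 and 0.52 with it. All 3 thus turned sign, but the means without set 1 hold more Cy5 than Cy3 arrays and are not adjusted for dye. How far set 1 or the dye made these turns was not tested. The means of the 3 genes on the other days were -1.90, -0.86 and -0.88. Downwards, AT5G54330 stood at 38.5, against 92.9, with -0.31, 0.19, -1.17 and -0.59, AT3G52620 at 21.6, against 74, and AT1G48700 at 27.1, against 79.4. None of these 6 differences passed after adjustment.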

How the data were processed

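The deposited table holds 1 value per probe and array, taken as a log2 ratio of decapped over total mRNA. How the authors scaled it, and with which tools, is not stated in the labels or the file. Of 26102 probes 13960 had 1 gene, 0 several and 12142 none in the platform annotation, and 13954 matched RefSeq. Probes of a gene were averaged: of 175 genes with at least 2 probes on day 2, 104 had probes on both sides of 0, with a median range of 1.49. The most common shared set of values of each day was treated as missing, and genes needed at least 2 values on each day. All 24 arrays were fitted with limma 3.58.1 (R 4.3.3), with a mean per day and a dye term, and Benjamini-Hochberg adjustment over 10607 genes. The error of a gene is pooled over all 24 arrays, so p-values measure the spread of arrays within a day over all days. By the design text each set was sampled on every day, so set numbers pair arrays across days: deviations of same-numbered arrays correlated at -0.17 to 0.64, and 17 of 20 were over 0.1. Values with the set number as a block are given where they change the call of a gene described in the text. They are also given where they move a count described there by over 1.5 times. Values give no depth, so the number of arrays limits precision. The named genes included the 12 highest and 12 lowest with a symbol that were called with all 4 arrays on one side of 0. Others were members of 14 lists, the rRNA gene, and the highest and lowest members of families with at least 6 tested members. Not all members of these lists and families are named in the text. Of these families 2 are not reported here. Members and lists were chosen with earlier results of these data known. Alternatives changed the block, dye term, centring, weights, shared values and arrays used. The fit was tested on simulated data with independent arrays, unlike the real arrays, which pair by set.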

Additional observations from a re-analysis of the deposited data

Results flagged for a closer look

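Of 109 single genes checked for 1 array far from the other 3 of day 2, 5 (4.59%) stood out, where chance gives about 1 in 20. RR19 had 1.10 in set 1, below the other sets. VCS had 1.18 in set 3, above the others, and TSO1 had 0.70 in set 3, below them. AGL18 had -0.87 in set 1 and PTL -0.28 in set 4, each below its other sets.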

How the results depend on the processing

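Over the alternatives run 0 of 56 called single genes turned direction, and 33 of these 56 kept the call under all but the fit on the day 2 arrays alone with the dye term, in which 0 genes were higher and 0 lower, and 0 and 0 of the listed genes. Leaving out 1 array at a time gave 855 to 1696 higher and 1113 to 2496 lower genes, and 9 to 14 higher and 11 to 14 lower listed genes. Without set 2 the counts were 855 and 1113, without set 3 872 and 1237, and without set 4 989 and 1415. Array weights gave 3264 lower genes. With the set number as a replicate block 1786 genes were higher and 2618 lower, and 15 and 22 of the listed genes. Of 388 named genes and family members 1 called gene did not pass with the block and 29 uncalled genes did. Chosen after seeing the data, the day 2 arrays alone without a dye term gave 927 higher genes, and centring with the replicate block 2301 higher genes and 23 higher listed genes. Leaving set 1 out on every day, also chosen then, gave 1938 higher and 2839 lower genes. The cause of these moves was not tested. The difference from the other days gave 0 higher and 0 lower genes by limma in each alternative run. Signal over background is unknown.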
